A study of Drosophila melanogaster with 2 samples.

Results

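The aminoacyl-tRNA synthetase genes were followed as a set of 33 protein-coding genes among the 13945 on the 6 main chromosome arms of Drosophila melanogaster. They were taken by symbol: an amino acid code, or GluPro, followed by RS, with -m marking the mitochondrial enzyme. The rule gave 18 genes without -m, called cytosolic here, and 15 with it, called mitochondrial. Binding of the protein CG7101 at their promoters was measured by chromatin immunoprecipitation and sequencing (ChIP-seq). The material was whole adult females, of unknown age, from a transgenic line that stably expresses CG7101 with green fluorescent protein (GFP) at its C-terminus. Anti-GFP antibody was used for the precipitation. All values come from 2 biological replicates of this 1 group, with no other condition to compare with, and a control data set named in the labels was not analysed here. The labels do not say which promoter drives the fusion. In whole animals, fewer cells with a bound site and less binding per cell cannot be told apart.

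Aminoacyl-tRNA synthetases join each amino acid to its tRNA, the step that fixes the reading of the genetic code. Animal cells translate in the cytosol and in mitochondria, and many amino acids have a separate nuclear gene for the enzyme of each compartment. For some amino acids a single gene supplies both, as is known for glycine and lysine in humans, so that the absence of -m from a symbol does not restrict a protein to the cytosol. GluProRS is a fusion that charges the tRNAs for glutamate and for proline. Several cytosolic synthetases of animals are held together in a multisynthetase complex by AIMP scaffold proteins.

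A peak's summit is the position of its highest enrichment, and a gene was counted as bound when 500 bp or less separated a summit from any of its annotated transcription start sites (TSSs). The strength of a peak is the authors' signal value, whose scale is not stated, so signals were compared only within a list. The authors' main list holds 6486 peaks that passed an irreproducible discovery rate (IDR) threshold applied to the replicate and pooled lists. The pooled list holds 30000 peaks called on both replicates together, and its signals run down to 27.5 against 142 for the weakest IDR peak. Read depth is unknown from these lists. Shares of genes are given with 95% Clopper-Pearson intervals, which cover counting error over genes only. Genes are not replicates, and no p-value was computed.

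IDR summits lay at 18 of the 33 synthetase genes (54.5%, 36.4 to 71.9), against 33.3% of all protein-coding genes. The cytosolic and mitochondrial genes differed in this count. Of the 18 cytosolic genes 13 were bound (72.2%, 46.5 to 90.3), and of the 15 mitochondrial genes 5 were bound (33.3%, 11.8 to 61.6). The mitochondrial share equalled the background and the cytosolic share stood above it, and the intervals of the classes overlap. In the pooled list all 18 cytosolic genes had a promoter summit, as did 11 of the 15 mitochondrial genes, against 62.9% of all genes. Among the 3243 strongest IDR peaks the counts were 11 cytosolic and 4 mitochondrial genes, against 19.8% of all genes.

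**Figure D1:**
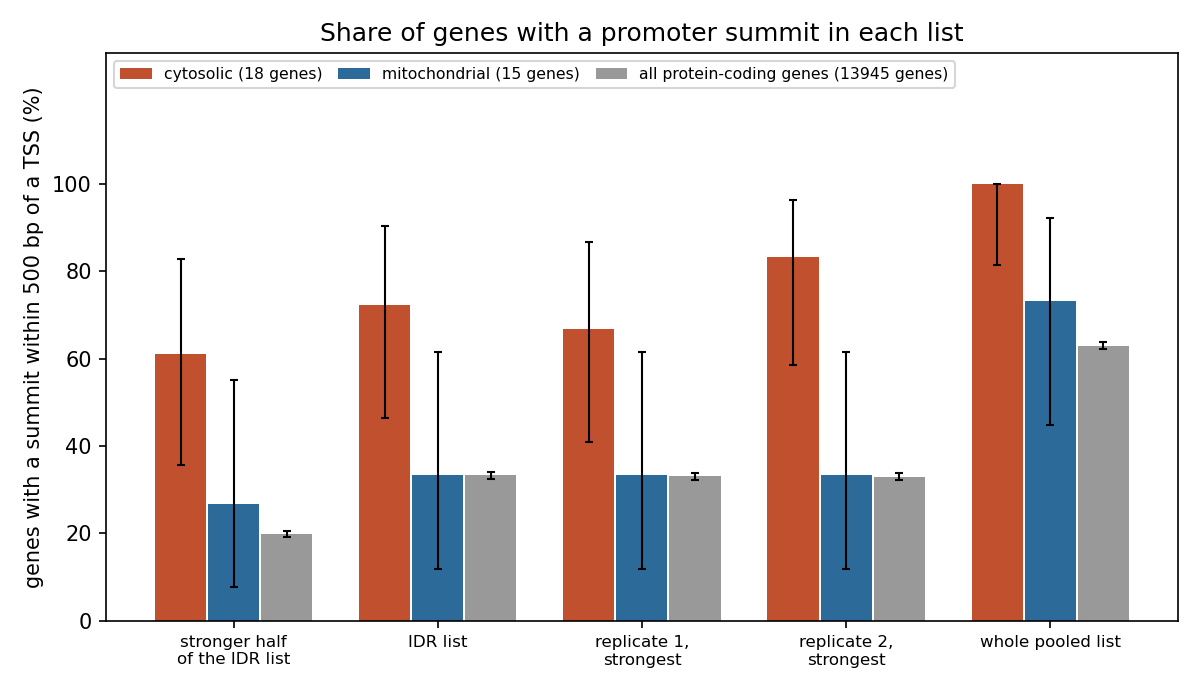
Percent of genes with a summit within 500 bp of a TSS in 5 peak lists, for 18 cytosolic synthetase genes, 15 mitochondrial synthetase genes and all 13945 protein-coding genes. Bars are shares and error bars are 95% Clopper-Pearson intervals. The cytosolic bar is highest in each list shown, and in the IDR list the mitochondrial bar (33.3%) equals that of all genes (33.3%).

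The stretches of DNA under some of these summits are given here as examples, not as a representative sample of the bound synthetase promoters. Each is read 5′ to 3′ on the strand of the synthetase gene, taken from the Release 6 (dm6) sequence within 100 bp of the pooled summit, and ended where an annotated exon begins. Capitals mark the longest unbroken run of A and T at GluProRS, IleRS and ProRS-m, the word TATCGATA at AlaRS and the word CACGTG at LeuRS-m. GluProRS and IleRS follow SerRS in strength among the cytosolic members, and ProRS-m is the strongest mitochondrial member. AlaRS and LeuRS-m are weaker members whose stretches hold a word. TATCGATA stood at 1 of 13 cytosolic IDR summits, against 9.79% of all promoter summits. CACGTG stood at 1 of 5 mitochondrial IDR summits, against 2.65%. The summit of SerRS, the strongest of the 33, lies in transcribed sequence and is described without its bases. The stretches are chr3R:23958428-23958628 on the minus strand for GluProRS, chr3L:22288377-22288577 on the plus strand for IleRS, chr3L:2651862-2652062 on the minus strand for ProRS-m, chr2L:8381765-8381820 on the minus strand for AlaRS and chr3L:4825701-4825852 on the plus strand for LeuRS-m.
GluProRS: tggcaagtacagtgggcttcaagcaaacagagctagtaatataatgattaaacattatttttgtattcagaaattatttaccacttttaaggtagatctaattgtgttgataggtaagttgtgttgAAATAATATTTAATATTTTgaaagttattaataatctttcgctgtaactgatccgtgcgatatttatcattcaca
IleRS: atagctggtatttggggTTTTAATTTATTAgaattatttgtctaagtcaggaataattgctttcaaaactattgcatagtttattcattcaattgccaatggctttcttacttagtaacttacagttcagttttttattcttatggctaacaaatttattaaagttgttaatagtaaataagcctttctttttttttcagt
ProRS-m: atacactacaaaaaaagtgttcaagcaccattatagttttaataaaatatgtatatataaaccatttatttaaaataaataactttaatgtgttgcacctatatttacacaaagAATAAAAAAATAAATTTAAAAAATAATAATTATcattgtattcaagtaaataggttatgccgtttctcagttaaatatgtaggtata
AlaRS: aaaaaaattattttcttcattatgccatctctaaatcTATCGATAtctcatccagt
LeuRS-m: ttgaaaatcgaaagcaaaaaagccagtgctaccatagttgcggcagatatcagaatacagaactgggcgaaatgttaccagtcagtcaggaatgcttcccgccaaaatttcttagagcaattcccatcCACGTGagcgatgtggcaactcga

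Among these stretches GluProRS, IleRS, ProRS-m and AlaRS were poor in G and C (28.4%, 25.9%, 19.9% and 26.8%), while the LeuRS-m stretch held 45.4%. The AlaRS stretch is short, at 56 bases. The longest A and T run measured 19 bases at GluProRS, 13 at IleRS, 33 at ProRS-m, 14 at AlaRS and 7 at LeuRS-m. Over the full windows of 100 bp to either side of the summit, the 13 bound cytosolic genes had a median GC content of 30.3% (20.4 to 45.3) and the 5 bound mitochondrial genes 38.3% (19.9 to 45.8). The median over 3362 promoter summits of all bound genes was 36.3% (13.4 to 67.2), a set that includes the synthetase summits. The median longest run of A and T was 14 bases at the cytosolic and 12 at the mitochondrial summits, against 12 at all promoter summits, and GlyRS had the longest among bound members, 43 bases. GC content and run length were added after the peaks had been examined.

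SerRS, which charges serine tRNA, carried the strongest peak of the set. Its signal was 1158 in the pooled list, where it ranked 295 of 30000, and it ranked 319 in replicate 1 and 260 in replicate 2. The peak ran from 3037178 to 3037598 on arm 2L, with its summit in the 5' UTR, 5 bp downstream of the SerRS TSS. The TSS of CG17260, read the other way, lay 8 bp from that of SerRS, and the summit stood at -13 bp from it (negative is upstream). Both replicates ranked this promoter ahead of the other 32 synthetase promoters.

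GluProRS and IleRS, the isoleucine enzyme, followed. The peak of GluProRS (3R, 23958348 to 23958686) had a pooled signal of 676, with replicate signals of 402 and 281 and ranks of 692 and 898. That of IleRS (3L, 22288245 to 22288668) had 616, with replicate signals of 360 and 264 and ranks of 834 and 980. Each summit was intergenic, between the synthetase gene and a gene read the other way: AP-1sigma, a subunit of a clathrin adaptor, at GluProRS, and Hem, a subunit of the actin-regulating WAVE complex, at IleRS. At GluProRS the summit lay at -137 bp from the synthetase TSS and at -123 bp from the AP-1sigma TSS, so the neighbour's start was nearer. At IleRS it lay at -188 bp from the synthetase TSS and at -282 bp from the Hem TSS, so the synthetase start was nearer.

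The next 4 cytosolic genes charge threonine, methionine, asparagine and valine. Pooled signals were 482 at ThrRS, 472 at MetRS, 446 at AsnRS and 378 at ValRS. Their ranks ran from 1019 to 1917 in replicate 1 and from 1596 to 2339 in replicate 2, so that their order was not the same in the replicates. MetRS ranked 1019 in replicate 1, ahead of ThrRS (1119), and 2339 in replicate 2, behind ThrRS (1596). AsnRS ranked 1275 and 1845, and ValRS 1917 and 1900. Their summits were all intergenic and upstream, at -169, -109, -67 and -373 bp from the TSSs of ThrRS, MetRS, AsnRS and ValRS. Each faced a gene read the other way, which was Patsas at ThrRS, CG15084 at MetRS, DCTN6-p27 at AsnRS and Kdm4B, a histone demethylase, at ValRS. The ValRS summit was nearer to the Kdm4B TSS (-140 bp), and ValRS was the member with 2 IDR summits within 500 bp of its TSSs.

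The weaker bound cytosolic genes had pooled signals of 289 at AspRS, 280 at GlyRS, 248 at ArgRS, 247 at AlaRS, 214 at GlnRS and 144 at HisRS. HisRS, the histidine enzyme, lay just inside the IDR list, with a rank of 9108 in replicate 1 and 5003 in replicate 2. The others ranked from 2068 to 3843 in replicate 1 and from 2278 to 4121 in replicate 2. At AspRS the summit was not at the 5' end of the gene: it lay at -155 bp from a TSS that is 3280 bp inside the gene model, in the 5' UTR of Nmda1, and AspRS was not bound when the 5' end of the gene model alone was used. The replicate 1 summit there stood 160 bp from the pooled summit, and at GlyRS it stood 129 bp from it, the widest displacements among bound members. HisRS shares an annotated start position with Bx, a gene for a LIM-domain protein, and its peak counts for both.

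The 5 cytosolic genes outside the IDR list all had a pooled promoter summit in a narrow range. Signals were 128 at CysRS, 126 at TyrRS, 125 at LeuRS, 115 at TrpRS and 109 at LysRS, against 142 for the weakest IDR peak. Each had a promoter summit in both replicates. LeuRS ranked 6228 and LysRS 6319 in replicate 2, within the 6486 strongest peaks of that list, but 8830 and 12509 in replicate 1. TyrRS ranked higher in replicate 1 (6546) than in replicate 2 (12457), and was outside the 6486 strongest peaks of both. For LeuRS, LysRS and TyrRS the rank therefore differed between the replicates, while CysRS ranked 6926 and 7393 and TrpRS 9059 and 8235 (replicates 1 and 2).

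Among the mitochondrial genes ProRS-m, for proline, had the strongest peak, followed by ArgRS-m, CysRS-m, PheRS-m and LeuRS-m. Pooled signals were 432, 353, 329, 288 and 181 in that order. The replicates ranked them alike: ProRS-m at 1561 and 1587, ArgRS-m at 2201 and 1755, CysRS-m at 2390 and 2076, PheRS-m at 3140 and 2356, and LeuRS-m at 5289 and 4833 (replicates 1 and 2). Each stood within the 6486 strongest peaks of either replicate. All 5 summits were intergenic, at -112 to -52 bp from the synthetase TSS, and no other gene's TSS was nearer. The peak of ProRS-m ran from 2651824 to 2652092 on 3L, between that gene and Snup, which encodes the snurportin homolog, and CG42304. CysRS-m faced O-fut1, an O-fucosyltransferase that acts on Notch, and LeuRS-m faced Dhc64C, the cytoplasmic dynein heavy chain.

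A further 6 mitochondrial genes had a summit in the pooled list alone. Their signals were 126 at AspRS-m, 90.3 at SerRS-m, 86.5 at AlaRS-m, 83.2 at AsnRS-m, 61.4 at TrpRS-m and 47.2 at TyrRS-m. AspRS-m lay within the range of the cytosolic genes outside the IDR list, while the other 5 lay below the weakest cytosolic gene, LysRS at 109. The deposited −log10 q of the pooled peak was at its maximum of 4.32 for AspRS-m and for all 18 cytosolic genes, and 3.84, 3.49, 3.31, 2.29 and 1.54 for the rest in the order above. TrpRS-m and TyrRS-m had a promoter summit in replicate 1 (ranks 10099 and 14406) and none in replicate 2. AlaRS-m ranked 7774 in replicate 1 and 23051 in replicate 2, the widest gap between ranks in the set.

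GluRS-m, IleRS-m, MetRS-m and ValRS-m had no promoter summit in any of the 4 lists. The nearest pooled summit lay 2233 bp from GluRS-m, 5440 bp from IleRS-m, 14389 bp from MetRS-m and 2024 bp from the nearest TSS of ValRS-m. The weakest peak of the pooled list had a signal of 27.5, and enrichment below that was not detectable in it.

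**Figure D2:**
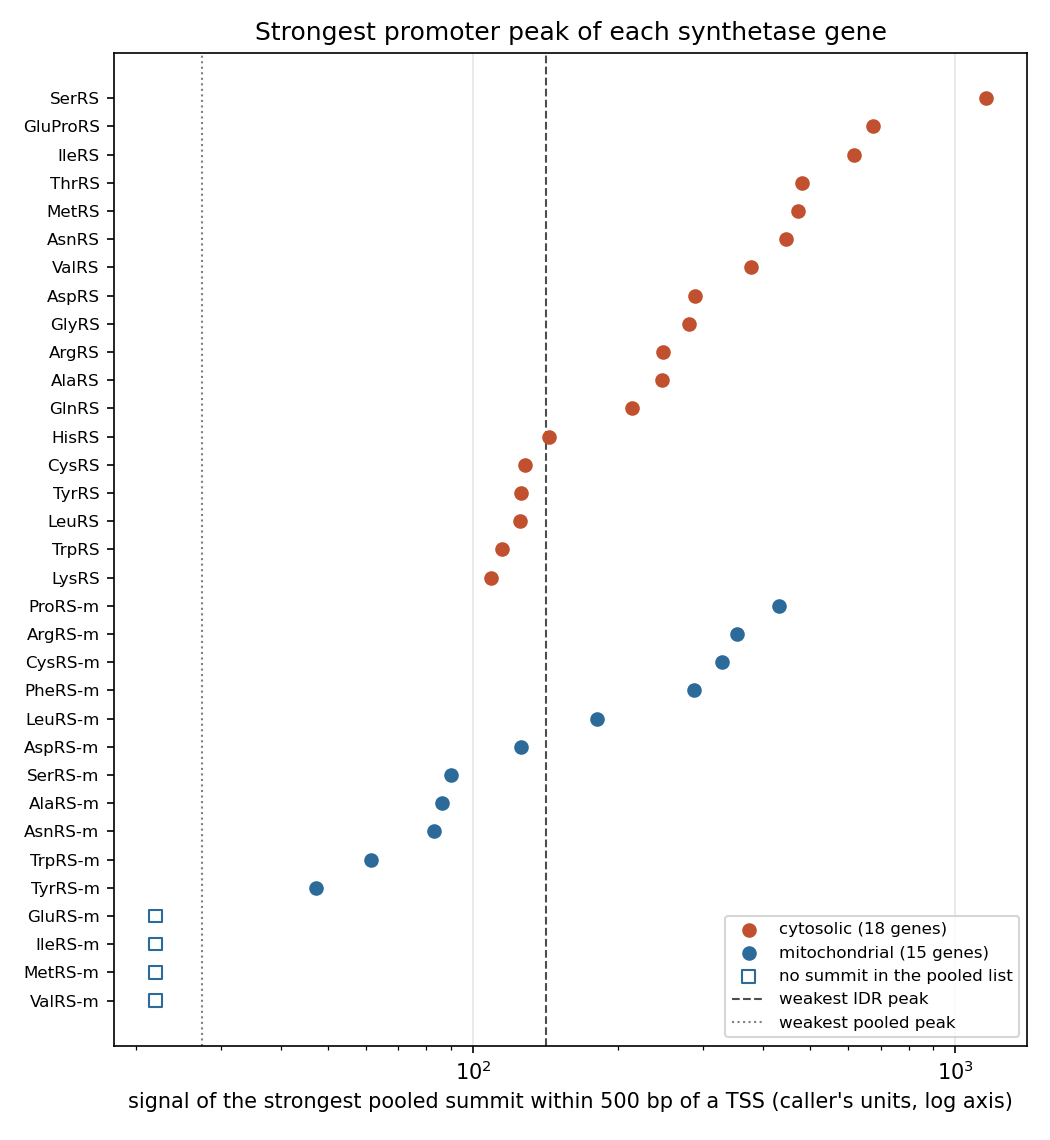
Signal of the strongest pooled-list summit within 500 bp of a TSS, in the caller's units on a log axis, for each of 18 cytosolic and 15 mitochondrial synthetase genes. The dashed line is the weakest IDR peak (142), the dotted line the weakest pooled peak (27.5), and open squares at the left edge are the 4 mitochondrial genes with no summit, whose position is not a value.

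As a class, the cytosolic genes had a median pooled signal of 264 (18 genes) and the mitochondrial genes 126 over the 11 with a summit. With the 4 genes that lacked a summit placed below the list, the mitochondrial median was 86.5. Over all protein-coding genes the median was 152 among the 8768 with a summit, and 65.6 with the others placed below. Among members in the IDR list the medians stood closer, at 378 for 13 cytosolic and 329 for 5 mitochondrial genes, against 289 for all bound genes. The ranges overlapped, since ProRS-m was stronger than 12 of the cytosolic genes. The difference in medians between the classes was 138 in the pooled list, 75.1 in the replicate 1 list and 23.0 in that of replicate 2, each on its own scale, or ratios of 2.09, 2.06 and 1.27. The replicate 2 median for the mitochondrial genes covers only the 9 that had a summit there.

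For 12 amino acids the set holds a cytosolic and a mitochondrial gene with the same symbol apart from -m. The cytosolic gene had the higher pooled signal, or the only summit, in 9 of these 12 pairs, and the mitochondrial gene in 3. These include the pairs for aspartate, isoleucine, methionine, serine, tryptophan and valine, whose mitochondrial gene has no other gene's TSS within 1 kb. In all of those the cytosolic gene was higher or alone. Where both genes had such a neighbour, the cytosolic gene was higher for alanine, asparagine and tyrosine. The mitochondrial gene was higher for arginine, cysteine and leucine. The part of gene arrangement in the pair counts was not tested. SerRS against SerRS-m differed most among the pairs with 2 values, 1158 against 90.3 (a ratio of 12.8), followed by AsnRS (5.36), AlaRS (2.86), TyrRS (2.67), AspRS (2.29) and TrpRS (1.87). In the other direction CysRS stood at 128 and CysRS-m at 329 (ratio 0.389), LeuRS at 125 and LeuRS-m at 181 (0.691), and ArgRS at 248 and ArgRS-m at 353 (0.703). In the IDR list 7 of the 12 pairs had the cytosolic gene alone, 2 the mitochondrial gene alone (CysRS-m and LeuRS-m), 1 both (arginine) and 2 neither (tryptophan and tyrosine). GluProRS, which serves glutamate and proline, is not among these pairs: it stood at 676, against 432 at ProRS-m, also in the IDR list, and no summit at GluRS-m. In the IDR list, either gene of a pair was therefore seen with and without its counterpart. This does not hold in the pooled list, where all 18 cytosolic genes had a summit. CysRS (128) and LeuRS (125) had pooled summits below the weakest IDR peak (142).

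Replicate agreement was looked at over the full lists as well. A promoter summit was present in both replicates for 18 of 18 cytosolic and 9 of 15 mitochondrial genes, against 57.2% of all protein-coding genes. Among the 6486 strongest peaks of replicate 1 the bound members were 12 cytosolic and 5 mitochondrial genes, against 33.0% of all genes, and among those of replicate 2 they were 15 and 5, against 32.9%. The 5 mitochondrial genes were the same in both and in the IDR list. HisRS was the cytosolic gene missing in replicate 1, and LeuRS and LysRS were added in replicate 2. Leaving aside AspRS, GlyRS and HisRS, the summits of bound members in either replicate lay within 52 bp of the pooled summit.

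**Figure D3:**
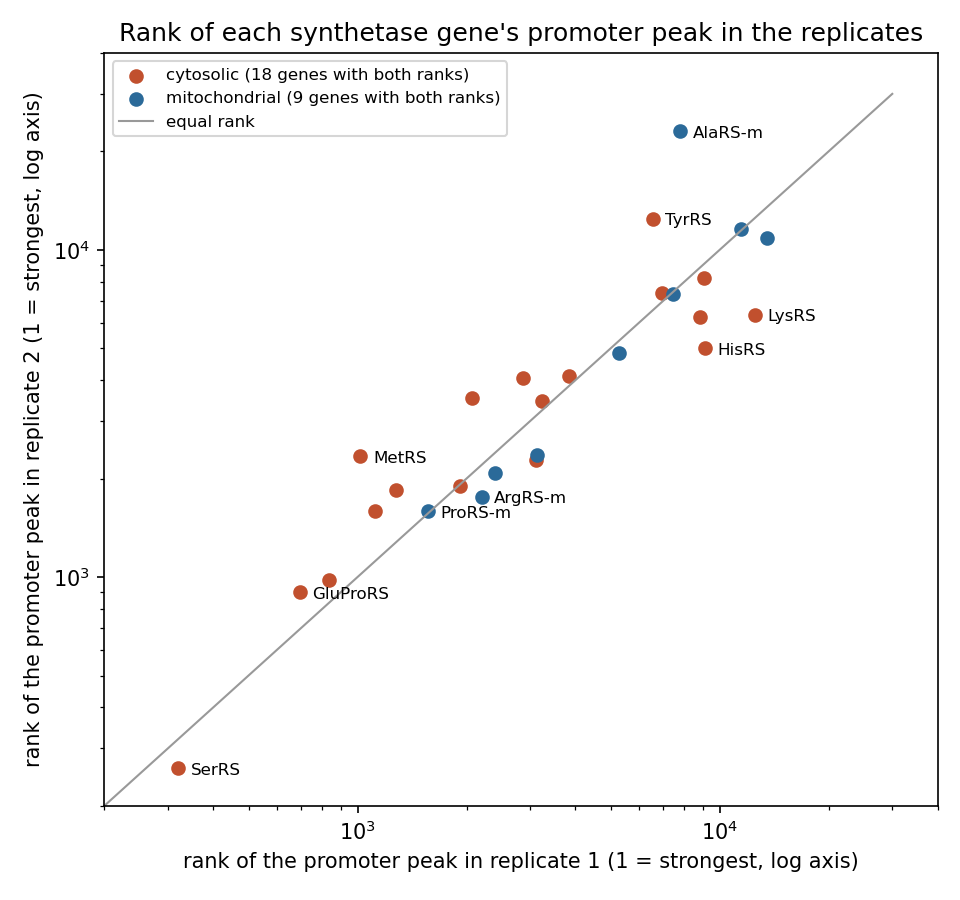
Rank of each synthetase gene's strongest promoter peak in replicate 1 (x) and replicate 2 (y), where 1 is the strongest peak of the list, on log axes, for the 18 cytosolic and 9 mitochondrial genes with a summit in both. SerRS is at ranks 319 and 260, AlaRS-m stands farthest from the line of equal rank, and genes of both classes lie along the line.

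The 2 classes also differed in where their genes lie. All 18 cytosolic genes had the TSS of another gene within 1 kb of one of their own. So had 7 of the 15 mitochondrial genes and 48.2% of all protein-coding genes. For AlaRS and CysRS the nearest such TSS lay 959 and 945 bp away on the same strand, just inside the 1 kb limit. For 15 of the cytosolic genes and 7 of the mitochondrial genes the nearest such neighbour was read divergently, away from the synthetase gene. A peak counts for both genes where its summit lies within 500 bp of a TSS of each. This was so at 12 of the 13 bound cytosolic genes and 4 of the 5 bound mitochondrial genes. The synthetase TSS was the nearest, or tied, for 8 of the 13 cytosolic and 5 of the 5 mitochondrial summits. Divergent neighbours, shared summits and nearest starts were not counted over all genes. Of the 4641 bound protein-coding genes, 3285 had another gene's TSS within 1 kb.

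Bound shares differed with this arrangement over the whole annotation. IDR summits were found at 48.8% of protein-coding genes with another TSS within 1 kb and at 18.8% of those without. Among genes with such a neighbour, 13 of 18 cytosolic (72.2%) and 4 of 7 mitochondrial synthetase genes (57.1%) were bound. Among genes without one there were 8 synthetase genes, all mitochondrial, and PheRS-m alone was bound (12.5%). In the pooled list every one of the 25 synthetase genes with a neighbouring TSS had a summit, against 77.1% of such genes, and so had 4 of the 8 without, against 49.6%. GluRS-m, IleRS-m, MetRS-m and ValRS-m all belong to the group without a neighbour. With the 1 kb limit no cytosolic gene stands alone, though AlaRS and CysRS lie close to that limit. Outside the shared start regions so defined, compartment and gene arrangement cannot be told apart. The part of the arrangement in the difference between the classes was not tested.

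**Figure D4:**
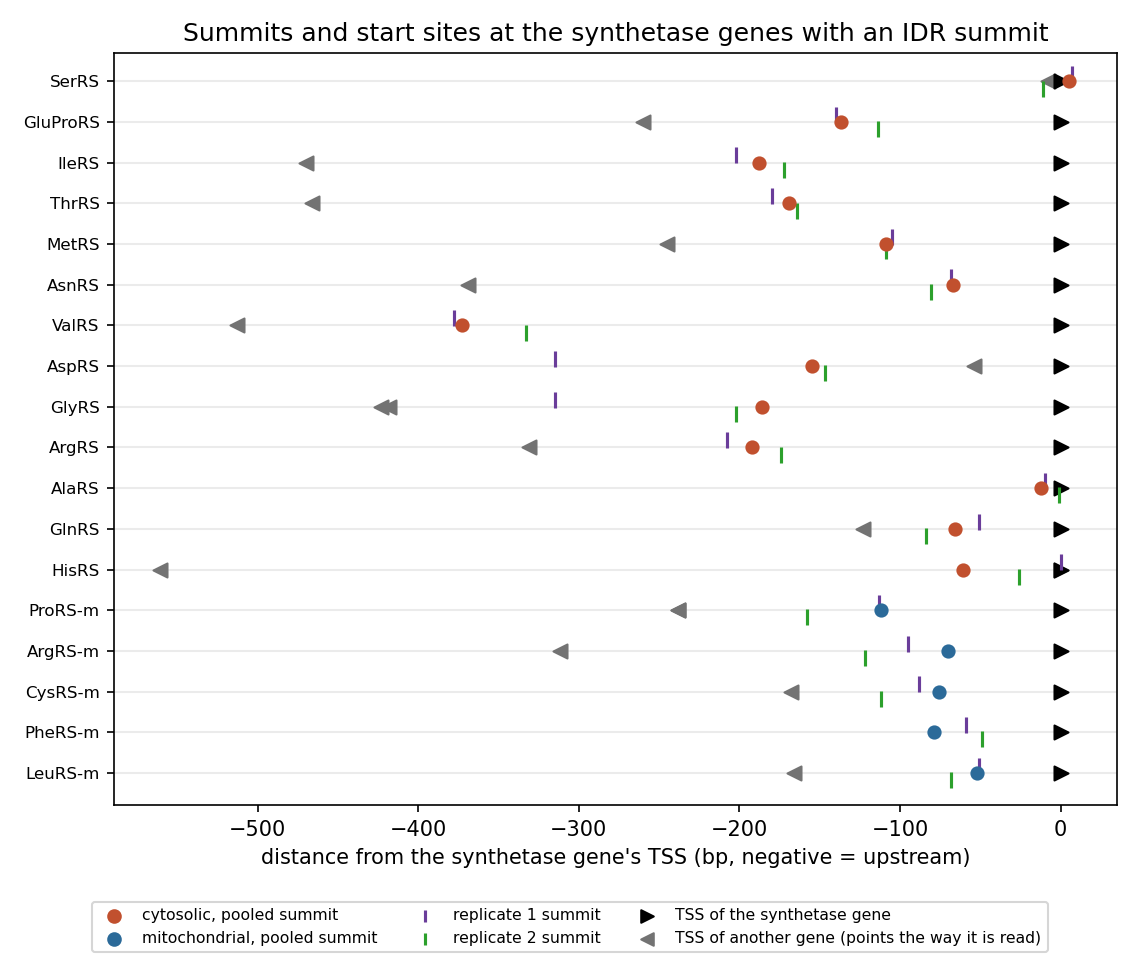
Positions of summits and start sites at the 18 synthetase genes with an IDR summit, in bp from the synthetase TSS nearest to the pooled summit (negative is upstream). Dots are pooled summits, short bars the summits of replicates 1 and 2, black arrowheads the synthetase TSS and grey arrowheads TSSs of other genes within 500 bp of the summit. Pooled summits lie upstream of the synthetase TSS in 17 of the 18 genes, and most lie between it and a gene read the other way.

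The bound summits stood upstream of the synthetase TSS at 12 of 13 cytosolic and 5 of 5 mitochondrial genes, against 85.2% of all bound genes. The median position was -137 bp for the cytosolic, -76 bp for the mitochondrial and -107 bp for all bound genes. Of the cytosolic summits 11 were intergenic and 2 lay in a 5' UTR, at SerRS and AspRS.

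Short words known from fly promoters were searched on both strands, and none was found at more than 6 of the 33 genes. Shares refer to 250 bp before to 50 bp after the 5' end of each gene model. Over the 33 genes, Motif 7 stood at 18.2% (against 9.29% of all genes) and TATCGATA at 15.2% (9.36%). GGTCACACT stood at 12.1% (6.05%), CACGTG at 6.06% (4.20%) and Motif 6 at none (2.23%). In that order the first 4 words rest on 6, 5, 4 and 2 genes. TATCGATA, the DNA replication-related element bound by DREF, occurred in this window at AlaRS, ArgRS, IleRS and TrpRS and at PheRS-m (4 of 18 cytosolic and 1 of 15 mitochondrial genes, against 9.36% of all genes). At AlaRS it ended on the base of the pooled summit, in the stretch printed above. GGTCACACT, Motif 1 of fly core promoters, occurred at GlnRS and at AsnRS-m, AspRS-m and ProRS-m (1 and 3 genes, against 6.05%). CACGTG, the E-box bound by Myc and related factors, occurred at GlnRS and LeuRS-m (1 and 1, against 4.20%), and at LeuRS-m it began 28 bp downstream of the summit. Motif 6 occurred at none of the 33 genes (2.23% of all genes) and Motif 7 at GlnRS, GluProRS, GlyRS and LysRS and at AsnRS-m and MetRS-m (4 and 2, against 9.29%).

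The words were also searched within 100 bp of the IDR summits. TATCGATA stood at 1 of 13 cytosolic summits (AlaRS) and 1 of 5 mitochondrial summits (PheRS-m), against 9.79% of all promoter summits. Motif 7 stood at AspRS and ValRS, against 11.0%. GGTCACACT stood at GlnRS alone (5.15% of all promoter summits), CACGTG at GlnRS and LeuRS-m (2.65%), and Motif 6 at none (1.67%). The summits of the 6 strongest cytosolic genes, and those of ProRS-m, ArgRS-m and CysRS-m, held none of the 5 words. Each word stood at only 1.67% to 11.0% of all promoter summits. The share of all promoter summits that hold none of the words was not computed, so this absence does not set these members apart.

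The pathway around the synthetases was examined through 11 further genes: both subunits of the cytosolic phenylalanine enzyme, the AIMP scaffold proteins, Slimp (a synthetase-like mitochondrial protein), the GatA, GatB and GatC subunits that amidate mischarged glutamine tRNA in mitochondria, Gcn2 (the kinase that senses uncharged tRNA) and crc, the fly ATF4. IDR summits lay at 7 of them, against the 33.3% of all genes given above. Pooled summits lay at 10 of the 11, against 62.9% of all genes. The phenylalanine subunits, which the naming rule leaves out, had nearly the same pooled signal, 296 at alpha-PheRS and 295 at beta-PheRS, and ranks of 2490 and 2907 in replicate 1 and 3084 and 2365 in replicate 2. In the pooled list they stood between ValRS (378) and AspRS (289). Beta-PheRS has no other TSS within 1 kb, unlike all 18 cytosolic members.

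GatA had the strongest signal of these genes, 629, with its summit in the 5' UTR of the divergent gene P5cr. GatC followed at 255, Slimp at 177, AIMP1 at 174 and crc at 147. AIMP3 (61.2), AIMP2 (58.8) and GatB (103) were in the pooled list alone, and Gcn2 had a summit in replicate 2 alone, at rank 11335. Of the AIMP scaffold genes, 1 of 3 was in the IDR list, no more than the 33.3% of all protein-coding genes.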

How the data were processed

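Per the deposited descriptions, the authors called peaks on each replicate and on the pooled replicates against a control and derived the IDR peaks from those lists, on dm6. Columns of the deposited lists hold the signal of a peak and the −log10 of its q value. For the aligner, peak caller and IDR threshold, names and settings were not given in the sources used here, and depth is unknown.

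TSSs of every annotated transcript came from Ensembl release 115, without transposable elements, on arms 2L, 2R, 3L, 3R, 4 and X, and sequence from RefSeq Release 6, whose arms contain all peak coordinates. Coordinates count from 1. The strongest summit within 500 bp of a TSS represented a gene. All 33 members were named, other genes only where they share a summit or belong to the related list. Members, lists and words were chosen with earlier results of these data known. Alternatives used other windows, lists, start sites, neighbours and each replicate alone. The gene assignment was tested on simulated data. Tools were pandas 2.3.3 and numpy 2.4.6 under Python 3.11.15, with intervals from scipy 1.17.1 and plots from matplotlib 3.10.9.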

Additional observations from a re-analysis of the deposited data

How the results depend on the processing

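The counts of bound synthetase genes (18 in all, 13 cytosolic and 5 mitochondrial) were the same with windows of 250 and 1000 bp, in which 28.6% and 36.8% of all genes were bound. Using the 5' end of the gene model alone removed AspRS, and the 3243 strongest IDR peaks removed GlnRS, HisRS and LeuRS-m. In the whole pooled list the counts were 29 in all and 11 mitochondrial. Restricted to members with no other gene's TSS within 1 kb, 8 genes were left, of which 1 was bound, a mitochondrial gene; no cytosolic gene was left, so that class has no value there. The counts without replicate 1 were 20 in all, 15 cytosolic and 5 mitochondrial, and without replicate 2 they were 17, 12 and 5. The cytosolic minus mitochondrial difference in median signal, 138 in the pooled list, was 121 with a 250 bp window, 138 with a 1000 bp window and 48.1 over IDR members. It was 23.0 without replicate 1 and 75.1 without replicate 2, on those lists' own scales. The cause of these shifts was not tested. With 18 and 15 genes, shares carry wide intervals, and peaks weaker than the last of a list (142 in the IDR list, 27.5 in the pooled list) could not be seen.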
